A study of Mus musculus with 2 samples.

Results

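The clustered protocadherins are 58 genes on mouse chromosome 18, chosen as the genes of GENCODE vM21 (genome build GRCm38) whose symbols start with Pcdha, Pcdhb or Pcdhg. They comprised 14 genes of the alpha cluster, 22 of the beta cluster and 22 of the gamma cluster. The alpha cluster held 12 alternate genes plus Pcdhac1 and Pcdhac2, and the gamma cluster held 12 gamma A genes, 7 gamma B genes and Pcdhgc3, Pcdhgc4 and Pcdhgc5. The 5 genes with a c in the symbol are the C-type members. All 58 lie on the forward strand, and Pcdhgb8 is annotated as a polymorphic pseudogene. A peak was counted with the clusters if its centre lay in the window from 10 kb before the first gene to 10 kb after the last, chr18:36920184-37851873, which is 931.69 kb long. Of 77596 peaks labelled WT it held 26, and of 100431 peaks labelled Bmi1-/- it held 40.

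The peaks come from ATAC-seq, an assay in which a transposase cuts and tags DNA where chromatin is open, so that a peak marks an accessible region. The study compared the organ of Corti, the auditory sensory epithelium of the cochlea, between WT and Bmi1-/- littermates to ask how the loss of Bmi1 alters chromatin accessibility. Bmi1 is a subunit of the Polycomb repressive complex PRC1, and the Bmi1-/- mice carried the germline tm1Brn knockout allele (FVB.129P2-Bmi1tm1Brn/MvlJ), backcrossed to C57BL/6J. Mice were at postnatal day 2, and the tissue of 10 mice was pooled into 1 library per genotype. Genotypes could therefore not be tested against each other, and every interval given here is a 95% interval that covers counting error only.

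Clustered protocadherins are cadherin-type adhesion proteins that give each neuron a surface identity. Each member has its own promoter and its own large variable exon, which encodes the extracellular cadherin repeats and the membrane-spanning segment. In the alpha and gamma clusters this exon is spliced to constant exons that encode a shared intracellular domain, whereas beta genes have no constant exons. In neurons the alternate members are switched on in random combinations by promoter choice with the help of CTCF and cohesin, and C-type members are expressed more uniformly.

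Several properties of the lists bear on all that follows. In both lists 100% of the peak names start with the abbreviation of the genotype that is not on the label, and the sources used here do not settle which is right, so the lists are called by their labels. Over the body of Bmi1 itself there was 1 peak labelled WT, and there were 3 labelled Bmi1-/-. Since the deleted part of the gene is not given in the sources used here, these peaks do not check the labels. The most frequent local background was 6.32 reads per summit for the WT label and 8.04 for the Bmi1-/- label. Depth and genotype cannot be told apart as reasons for the longer list. Among 8 marker genes per cell type, promoter peaks were found in the 2 lists, WT first, for 4 and 3 hair cell genes, 5 and 6 supporting cell genes, 6 and 4 neuronal genes, 1 and 4 glial genes, 2 and 2 mesenchymal genes, 2 and 1 blood cell genes and 3 and 3 endothelial genes. Of all protein-coding genes, 42.3% and 54.7% had a promoter peak in these lists. The first share lies inside the interval of every cell type labelled WT, such as glia (0.316 to 52.7%). The second lies inside those labelled Bmi1-/-, such as glia and neurons (each 15.7 to 84.3%), except blood cells (0.316 to 52.7%). With 8 genes per type, these counts do not show a shift in cell types. Atoh1 and Pou4f3, which define hair cells, had a promoter peak in both lists, whereas Gfi1, Myo7a, Otof and Tmc1 had none in either. Accessibility in a mixed tissue does not separate the share of a cell type from the accessibility in each cell, and the part of the cell mixture in the results was not tested.

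The window held about as many peaks as its length would hold elsewhere. The list labelled WT gave 2.79 peaks per 100 kb (1.82 to 4.09), beside 2.85 over the genome and 2.91 over the rest of chromosome 18. The list labelled Bmi1-/- gave 4.29 peaks per 100 kb (3.07 to 5.85), beside 3.68 over the genome and 3.54 over the rest of the chromosome. Both genomic values lie inside the interval of the window. The 4 Hox clusters, which are tandem arrays of developmental genes, held 7.0 and 8.39 peaks per 100 kb, and the olfactory receptor genes of chromosome 9, another family of tandem genes, held 0.594 and 0.979. The ratio of peak numbers, Bmi1-/- over WT, was 1.54 in the window (0.916 to 2.63) and 1.29 over the genome (1.28 to 1.31), so that the window did not depart from the ratio of the list lengths beyond counting error. Among peaks with a p-value threshold stricter than that of the lists (−log10 of 5 or more) the numbers were 9 and 8 and the ratio turned to 0.889 (0.298 to 2.60).

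**Figure D1:**
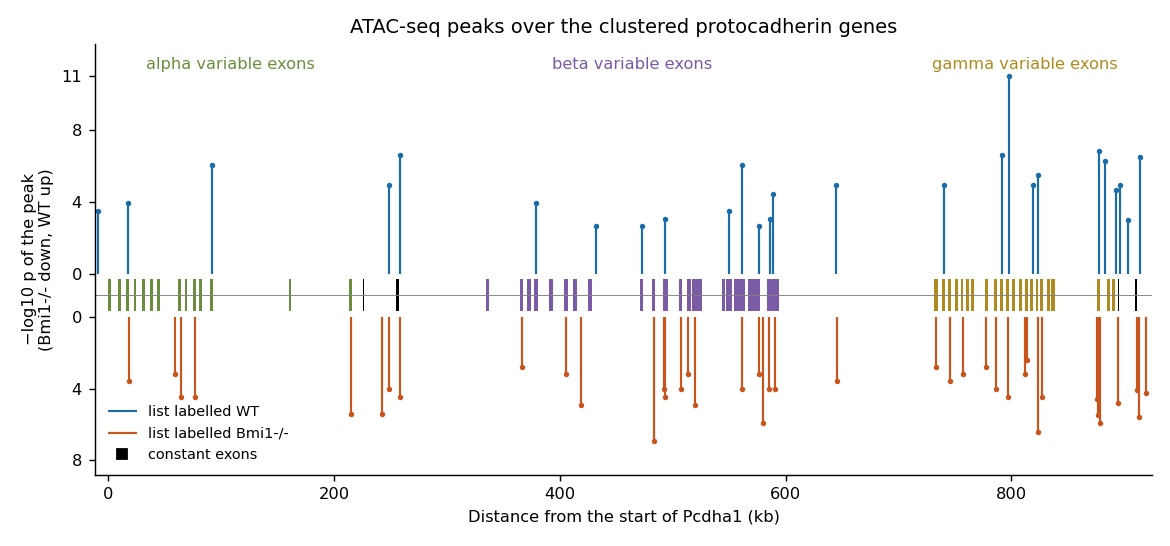
ATAC-seq peaks over the window of the clustered protocadherins. The x axis is the distance from the start of Pcdha1 in kb, and the height of each stem is the −log10 p of a peak, upwards for the 26 peaks labelled WT and downwards for the 40 labelled Bmi1-/-; boxes mark variable exons by cluster and constant exons in black. Most stems stand over variable exons, and the tallest, at a −log10 p of 11, is in Pcdhga8.

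Over all deposited peaks, density was lowest in the alpha cluster and highest in the gamma cluster in both lists, and at a q-value of 0.05 the alpha and beta clusters had 2 peaks each in the list labelled WT, over 257.478 and 259.542 kb. The alpha cluster held 3 peaks labelled WT and 7 labelled Bmi1-/-, which is 1.17 and 2.72 per 100 kb. The beta cluster held 9 and 14 peaks, or 3.47 and 5.39 per 100 kb. The gamma cluster held 10 and 15 peaks, or 5.55 (2.66 to 10.2) and 8.33 (4.66 to 13.7) per 100 kb. The alpha cluster's intervals, 0.240 to 3.41 and 1.09 to 5.60, overlap those of the gamma cluster in both lists. The clusters differ in how closely their exons are packed, and within variable exons alone the density was 8.60 peaks per 100 kb (4.92 to 14) labelled WT and 15.1 (10.0 to 21.8) labelled Bmi1-/-. The window outside variable exons gave 1.34 (0.643 to 2.47) and 1.61 (0.832 to 2.81) per 100 kb, so the intervals inside and outside the exons did not overlap in either list. Coding parts of variable exons held 11.5 summits per 100 kb labelled WT and 19.4 labelled Bmi1-/-. Other coding exons of 2000 bp or more that hold a start codon were similar, with 14.2 and 18.8.

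The peaks of the clusters were small. Their summits held 14 to 29 reads for the WT label and 16 to 32 reads for the Bmi1-/- label, with fold enrichments over the local background of 2.05 to 4.10 and 1.88 to 2.99. The median window peak stood at the 69.3rd percentile of −log10 p among peaks labelled WT and at the 46.6th percentile among those labelled Bmi1-/-. Of the 26 peaks labelled WT, 16 (61.5%) reached a q-value of 0.05, beside 52.4% of the whole list. Of the 40 labelled Bmi1-/-, 27 (67.5%) did, beside 62.9%. With 1 bp in common counted as an overlap, 7 of the 26 peaks labelled WT (26.9%, 11.6 to 47.8) met a peak of the other list, and over the whole list 24.8% did. Likewise 7 of the 40 peaks labelled Bmi1-/- (17.5%, 7.34 to 32.8) met a peak labelled WT, beside 18.5% of the whole list. The overlap of the lists in the clusters thus lay near that over the genome.

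Promoters of the clustered protocadherins were almost without peaks. A promoter was taken as 1 kb to each side of the annotated gene start. In the list labelled WT, 0 of 58 members had a promoter peak, which allows a share of up to 6.16%, whereas 42.3% of 21938 protein-coding genes had one. In the list labelled Bmi1-/-, 4 of 58 members (6.90%, 1.91 to 16.7) had one, whereas 54.7% of protein-coding genes did. No member had a promoter peak in both lists or in the list labelled WT only, while 36.6% and 5.65% of protein-coding genes did. The 4 members with a peak in the list labelled Bmi1-/- only stand beside 18.1% of protein-coding genes. Hox genes had a promoter peak in 14 and 18 of 39 cases (35.9% and 46.2%), and olfactory receptor genes of chromosome 9 in 0 and 2 of 132.

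The 4 members with a promoter peak labelled Bmi1-/- were Pcdhac2, Pcdhga6, Pcdhgb6 and Pcdhgc3. The C-type gene Pcdhgc3 had 2 such peaks, with summits at −134 and 484 bp from the gene start, at −log10 p values of 4.57 and 5.46 and −log10 q values of 1.75 and 2.39. Both lay in the body of BC037039, another annotated gene, and 1 of them lay within 1 kb of its start. The C-type gene Pcdhac2 had a peak 731 bp wide with a −log10 p of 5.39 and a −log10 q equal to 2.33. Its summit was 1541 bp from the gene start, inside the variable exon, so only its edge reached the promoter. The peaks of Pcdhgb6 and Pcdhga6 had summits 102 and 432 bp after the gene start, and with −log10 q values of 0.844 and 0.632 they did not reach a q-value of 0.05. Among the remaining C-type members, Pcdhac1, Pcdhgc4 and Pcdhgc5 had no promoter peak in either list, and neither did any of the 12 alternate alpha and 22 beta genes.

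**Figure D2:**
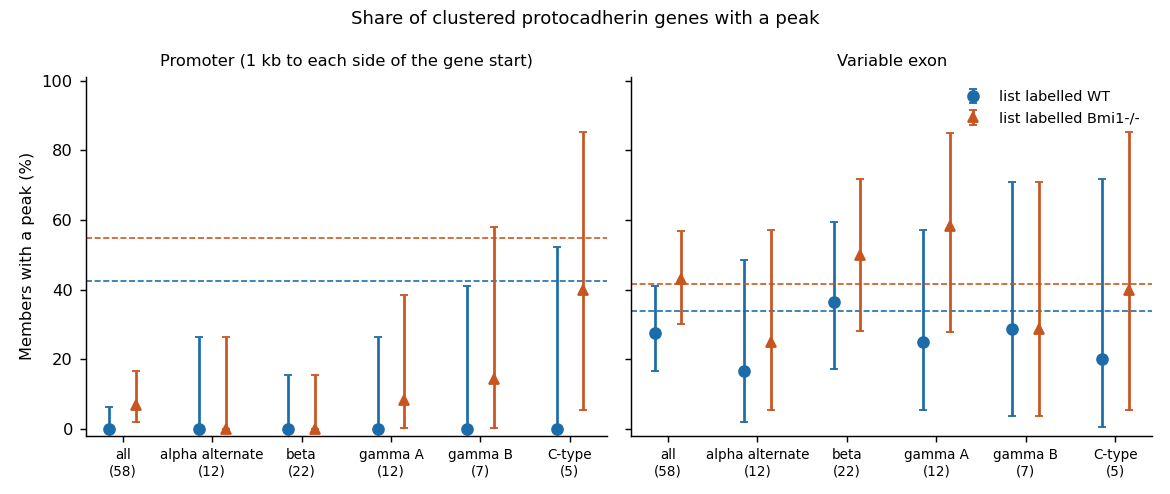
Share of clustered protocadherin genes with a peak in the promoter (left) or in the variable exon (right). Points are percentages of the genes in each group, with the number of genes under the group, bars are exact binomial 95% intervals, and dashed lines give the share among 21938 protein-coding genes (left, 42.3% and 54.7%) or 282 other long coding exons (right, 33.7% and 41.5%) for the list of the same colour. Promoter shares of all members lie below the lines, and exon shares lie around them.

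Variable exons were where the peaks of the clusters lay. They held 16 of the 26 window peaks labelled WT and 29 of the 40 labelled Bmi1-/-, of which 28 had their centre in the exon. At least 1 peak was found in 16 of 58 variable exons in the list labelled WT (27.6%, 16.7 to 40.9), and other coding exons of 2000 bp or more that hold a start codon had one in 33.7% of 282 cases. In the list labelled Bmi1-/- it was 25 of 58 (43.1%, 30.2 to 56.8) beside 41.5% of the other long exons. Both lists had a peak in 9 variable exons (15.5%), beside 24.8% of the other long exons. These 9 were 56.2% of the exons with a peak labelled WT and 36% of those with a peak labelled Bmi1-/-, and the same shares for other long exons were 73.7% and 59.8%. The other long exons were longer, with a median coding part of 2496 bp beside 2397 bp. Their summits labelled WT reached 9054 bp from the start codon. The part of exon length in these shares was not tested. A peak was present in either list in 32 variable exons and in neither in 26. With the stricter p threshold, 6 variable exons (10.3%) had a peak labelled WT beside 12.8% of the other long exons, and 4 (6.90%, 1.91 to 16.7) had one labelled Bmi1-/- beside 18.4% (14.1 to 23.5). With both lists cut to equal length, 16 variable exons (27.6%) had a peak labelled WT and 17 (29.3%) had one labelled Bmi1-/-. Other long exons then had one in 33.7% and 37.2% of cases. Members named below for an exon peak were chosen after their values were seen.

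Alternate alpha genes had an exon peak labelled WT in 2 of 12 cases (16.7%, 2.09 to 48.4) and one labelled Bmi1-/- in 3 (25%, 5.49 to 57.2). These intervals include the shares of other long exons, 33.7% and 41.5%. In the list labelled WT, Pcdha3 and Pcdha12 had a peak, and in the list labelled Bmi1-/-, Pcdha3, Pcdha8 and Pcdha10 did, each out of 12 genes. Pcdha12 gave the strongest of these, labelled WT, with a fold enrichment of 3.00 and a −log10 p of 6.04. Pcdha8 and Pcdha10 had the same values in the list labelled Bmi1-/-, with 21 reads, a fold enrichment of 2.43 and a −log10 p of 4.44. Pcdha3 was the only alpha gene with a peak in both lists, at −log10 p values of 3.96 and 3.57.

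Beta genes, which consist of a single large coding exon, had an exon peak labelled WT in 8 of 22 cases and one labelled Bmi1-/- in 11 of 22. The 8 labelled WT were Pcdhb4, Pcdhb9, Pcdhb11, Pcdhb16, Pcdhb18, Pcdhb20, Pcdhb21 and Pcdhb22. Pcdhb18 was the strongest of them, with 21 reads, a fold enrichment of 3.00 and a −log10 p of 6.04. The 11 labelled Bmi1-/- were Pcdhb2, Pcdhb6, Pcdhb10, Pcdhb11, Pcdhb12, Pcdhb13, Pcdhb14, Pcdhb18, Pcdhb20, Pcdhb21 and Pcdhb22. Here Pcdhb10 was the strongest, and the strongest peak of that list in the whole window, with 26 reads, a fold enrichment of 2.99, a −log10 p of 6.94 and a −log10 q of 3.56. It stood at the 91.4th percentile of its list, and no peak labelled WT lay within 9364 bp of it. Both lists shared 5 beta genes, and Pcdhb11 had 2 peaks labelled Bmi1-/- in the same exon.

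Gamma A genes had an exon peak in 3 of 12 cases for the WT label (Pcdhga2, Pcdhga8 and Pcdhga10) and in 7 of 12 for the Bmi1-/- label (Pcdhga1, Pcdhga3, Pcdhga4, Pcdhga6, Pcdhga7, Pcdhga8 and Pcdhga11). The strongest peak of all was that of Pcdhga8 in the list labelled WT, at chr18:37727529-37727884, with 29 reads, a fold enrichment of 4.10, a −log10 p of 11 and a −log10 q of 6.65. This put it at the 99.2nd percentile of its list. The peak of Pcdhga8 labelled Bmi1-/- overlapped it with 21 reads, a fold enrichment of 2.43 and a −log10 p of 4.44, which is the 57.8th percentile. Gamma B genes had an exon peak in 2 of 7 cases in each list, Pcdhgb4 and Pcdhgb7 in the list labelled WT, Pcdhgb6 and Pcdhgb7 in the list labelled Bmi1-/-. Pcdhgb7 was at −log10 p values of 5.49 and 6.41.

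Of the 5 C-type members, 1 had an exon peak labelled WT (20%, 0.505 to 71.6) and 2 had one labelled Bmi1-/- (40%, 5.27 to 85.3). The shares of other long exons, 33.7% and 41.5%, lie inside these intervals. Pcdhgc3 had 1 exon peak labelled WT, with 27 reads, a fold enrichment of 2.89 and a −log10 p of 6.82, and 3 exon peaks labelled Bmi1-/-, of which the strongest had a −log10 p of 5.91. Its peak labelled WT and the nearest peak labelled Bmi1-/- were separated by 124 bp. Pcdhac2 had an exon peak in the list labelled Bmi1-/- only, and Pcdhac1, Pcdhgc4 and Pcdhgc5 had none in either list. The local background was raised around the gamma C-type genes, at 7.70 to 9.56 reads for peaks labelled WT, beside the most frequent value of 6.32, and at 9.50 to 13.7 for those labelled Bmi1-/-, beside 8.04. A raised background lowers the fold enrichment of peaks there, and its source was not tested.

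Within the variable exon the peaks kept to the part nearer the 3′ end. Summits in the coding part labelled WT lay at a median of 1779 bp from the start codon (605 to 2192, 16 summits), and those labelled Bmi1-/- at 1677 bp (242 to 2237, 27 summits), and the median coding part was 2397 bp long. Among summits labelled WT, 15 of 16 (93.8%, 69.8 to 99.8) lay in the 3′-most 50% of the coding part, and in the other list 24 of 27 (88.9%, 70.8 to 97.6). In other long coding exons the shares were 46.2% of 119 summits (37.0 to 55.6) and 43.9% of 157 summits (36.0 to 52.1). The intervals of the members and of the other exons did not overlap in either list. With the stricter p threshold the shares were 6 of 6 summits (54.1 to 100) labelled WT, beside 36.1% of other exon summits (20.8 to 53.8), and 3 of 5 (60%, 14.7 to 94.7) labelled Bmi1-/-, beside 32.7% (19.9 to 47.5), so that the intervals of the Bmi1-/- label then overlapped. Variable exons are related sequences that arose by duplication, so the members are not independent cases.

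**Figure D3:**
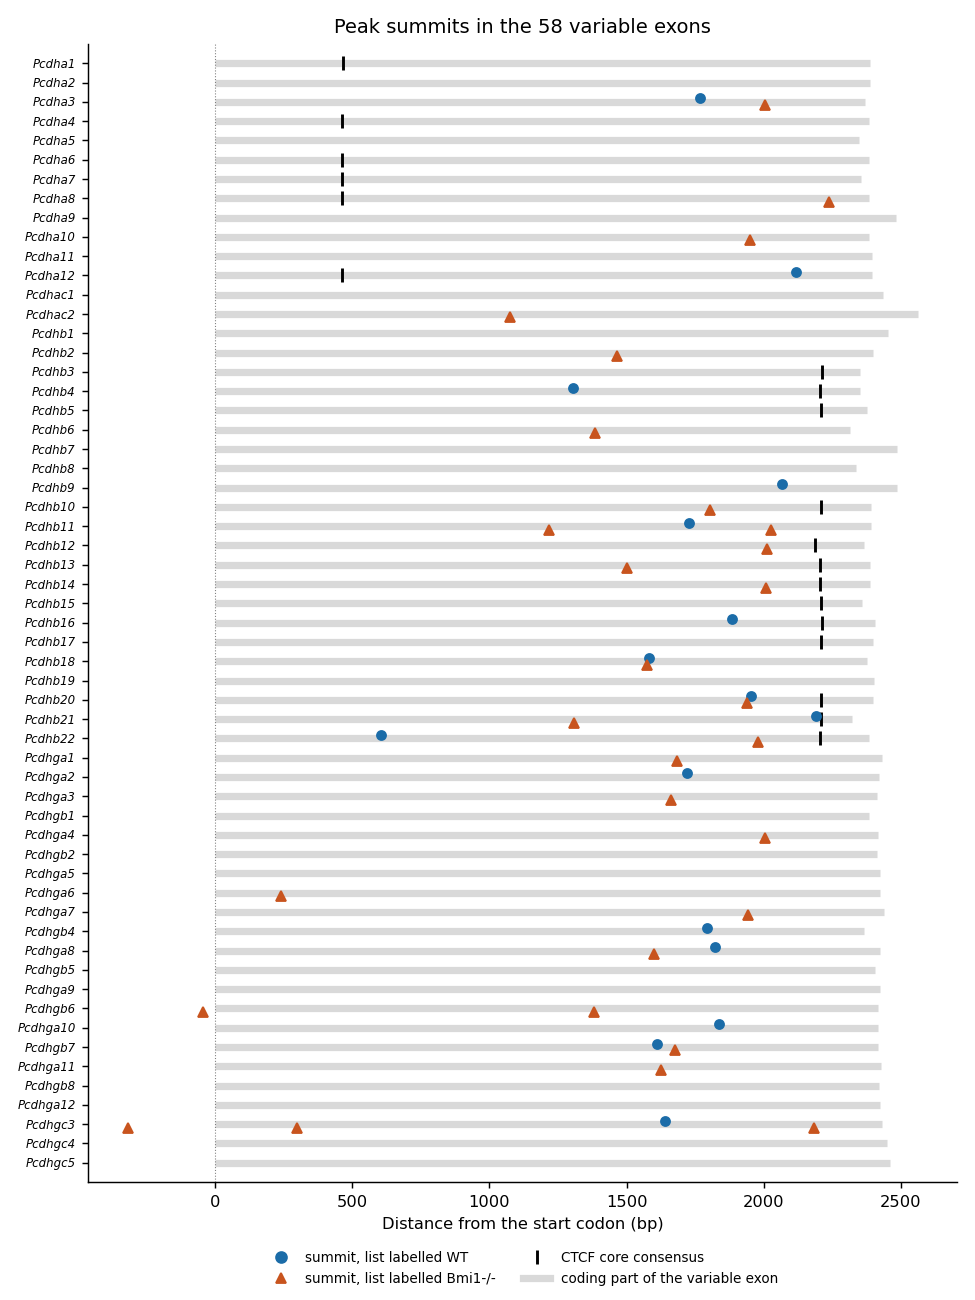
Peak summits in each of the 58 variable exons, in chromosomal order from Pcdha1 at the top. The x axis is the distance from the start codon in bp, grey bars are the coding parts, circles are summits labelled WT, triangles summits labelled Bmi1-/-, and black ticks exact matches to the CTCF core consensus; most summits lie between 1200 and 2200 bp, and ticks lie near 462 bp in alpha genes and near 2209 bp in beta genes.

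The few summits nearer the start codon belonged to 4 genes. For the WT label it was Pcdhb22, with a summit 605 bp from the start codon. For the Bmi1-/- label they were Pcdhga6 at 242 bp, Pcdhgc3 at 300 bp and Pcdhac2 at 1075 bp of a coding part of 2562 bp. The summits of 2 further exon peaks labelled Bmi1-/-, in Pcdhgb6 and Pcdhgc3, lay at −45 and −318 bp from the start codon. In bins of 200 bp, summits labelled WT were most frequent at 1600 to 1800 bp, with 10.3 per 100 exons, and summits labelled Bmi1-/- at 2000 to 2200 bp, also with 10.3 per 100 exons. From 0 to 200, 400 to 600 and 800 to 1000 bp no member had a summit in either list. Other long exons had 2.13 to 4.96 per 100 exons in these bins, a rate that gives few summits per bin in 58 exons.

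The base composition of the variable exons moved with this position. The mean G+C content over the 58 exons was 42.8% ± 4.27 (SD) at 800 to 1000 bp and 60.1% ± 4.35 at 1600 to 1800 bp. In other long exons it was 51.5% ± 9.26 and 50.8% ± 8.89 in the same bins. The start of the variable exon was also rich in G+C, with 56.5% ± 7.25 in the first 200 bp, but it held no summit in either list. Words of 50 bases that occur more than once in the window made up 16.5%, 12.7% and 13.5% of the sequence in the bins from 1400 to 2000 bp and 15.9% at 200 to 400 bp. The part of G+C content and of repeated sequence in the position of the peaks was not tested.

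**Figure D4:**
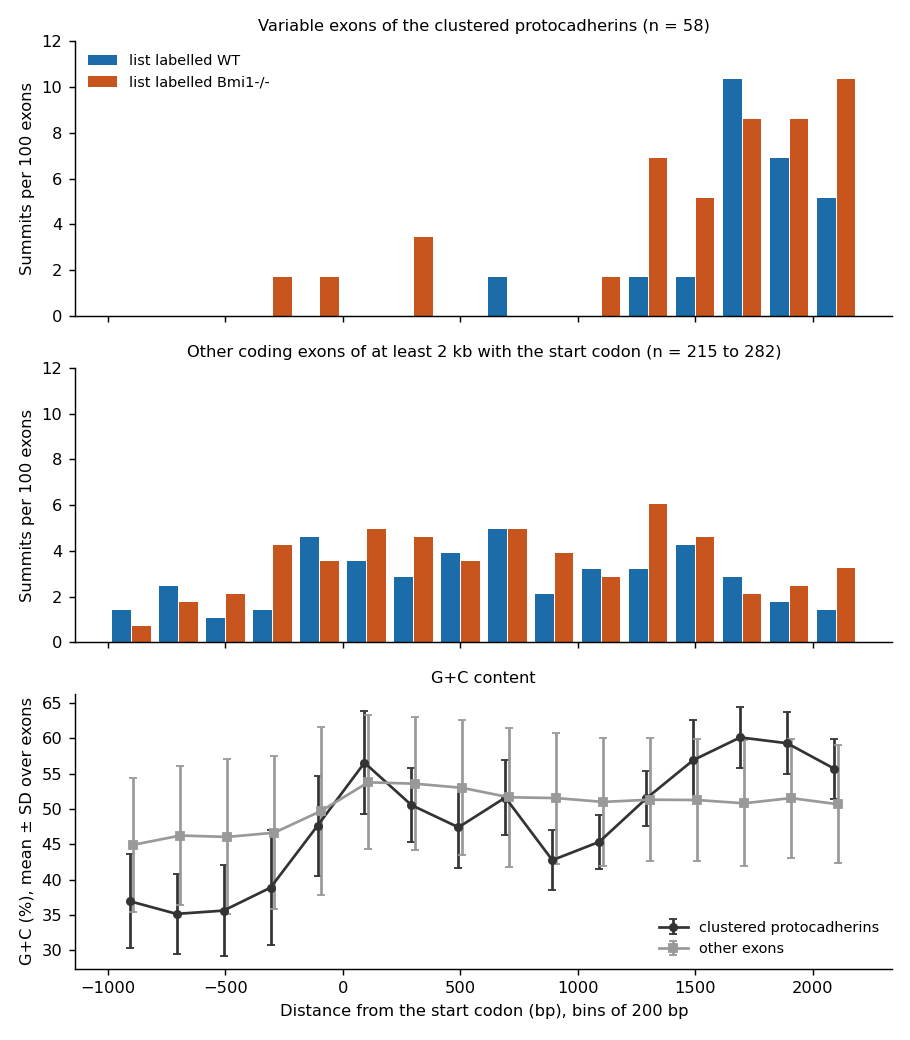
Summits and G+C content along variable exons of the clustered protocadherins and other long coding exons, in bins of 200 bp from the start codon. The upper panels give summits per 100 exons for each list, up to 10.3 in the variable exons and 6.03 in the other exons, and the lowest panel gives the mean G+C content with bars of 1 SD over exons, which in the variable exons reaches 60.1% at 1600 to 1800 bp.

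Exons with and without a peak were close in overall composition. The median G+C content was 52.5% in exons with a peak labelled WT and 52.4% in those without, and 51.8% and 52.7% in exons with and without a peak labelled Bmi1-/-. All 58 coding parts lay between 48.3% and 56.4%. The share of repeated 50-base words was lower in exons with a peak, with medians of 5.18% and 7.47% for the list labelled WT and 5.04% and 9.11% for the list labelled Bmi1-/-. By group this share averaged 16.4% in alternate alpha genes, 12% in gamma B, 7.22% in beta and 1.0% in gamma A genes, and it was 0% in C-type genes. Alternate alpha and gamma B genes, with the highest shares of repeated sequence, had exon peaks in 2 and 3 of 12 and in 2 and 2 of 7 cases. Beta genes had them in 8 and 11 of 22, gamma A genes in 3 and 7 of 12 and C-type genes in 1 and 2 of 5. With 5 to 22 genes per group the intervals are wide, such as 2.09 to 48.4% for alternate alpha and 0.505 to 71.6% for C-type genes labelled WT. These counts do not show whether exon peaks follow the share of repeated sequence. Reads that map equally well to several members may be lost in repeated sequence, which was not tested. No peak of the window had over 50% of its 50-base words repeated.

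The 9 exons with a peak in both lists differed in how closely the peaks coincided. In Pcdhb18 and Pcdhb20 the summits were 9 and 14 bp apart, and in Pcdhgb7 67 bp apart. In Pcdhga8, Pcdha3 and Pcdhb11 the nearest summits were 221, 240 and 298 bp apart and the peaks still overlapped. In Pcdhgc3, Pcdhb21 and Pcdhb22 they were 545, 883 and 1375 bp apart and the peaks did not overlap. Of the 7 peaks labelled WT that met the other list, 6 were therefore in variable exons, and the remaining one was at the start of Gm10544, within the alpha cluster.

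Constant exons carried 1 peak in all. The 3 alpha constant exons, shared by all 14 alpha genes, had none in either list. The 3 gamma constant exons, shared by all 22 gamma genes, had none labelled WT and 1 labelled Bmi1-/-, at chr18:37841418-37841687 in the last constant exon, which ends at 37841873. That peak had 29 reads over a local background of 13.6, a 2.06-fold enrichment and a −log10 q equal to 1.43. The 6 constant exons cover 4.979 kb, so a count of 0 allows up to 74.1 peaks per 100 kb for the WT label, and the 1 peak labelled Bmi1-/- is 20.1 per 100 kb (0.508 to 112). Both intervals include the density in variable exons, and no difference from them was detectable in either list.

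The remaining peaks of the window lay between exons, at other genes or beyond the clusters. Starts of other annotated genes outside variable exons had 1 peak labelled WT (Gm10544) and 3 labelled Bmi1-/- (Gm10544, Gm38097 and Gm38182). Some exon peaks also lay within 1 kb of the start of another annotated gene, namely Gm37446 in Pcdhb12, Gm37118 in Pcdhga1 and BC037039 in Pcdhgc3. ATAC-seq does not assign a peak to a strand or a gene, so such peaks cannot be attributed to the member alone. Just beyond the alpha cluster a peak labelled WT at chr18:37188156-37188396 had a fold enrichment of 3.14 and stood at the 92.1st percentile, and the nearest peak labelled Bmi1-/- began 356 bp further on. A single peak lay between the beta and gamma clusters in each list, and these were 1047 bp apart.

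Matches to the core consensus of CTCF, which helps in the promoter choice of alternate members, were counted on both strands as a description of the sequence. Binding of CTCF was not measured. An exact match was found in the coding part of 19 of 58 variable exons (32.8%) and in 5 of 282 other long coding exons (1.77%). In the alpha cluster 6 of 12 alternate genes had it, 462 to 465 bp from the start codon and on the strand of the gene. These were Pcdha1, Pcdha4, Pcdha6, Pcdha7, Pcdha8 and Pcdha12. In the beta cluster 13 of 22 genes had it, 2188 to 2212 bp from the start codon and on the opposite strand. No gamma or C-type exon held an exact match. With 1 mismatch allowed, 55.2% of variable exons and 23.8% of other long exons held the consensus. Variable exons arose by duplication, so members with a match are not independent cases, and these shares do not measure an enrichment.

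Few of these matches lay under a peak. Of the 19 matches 1 lay inside a peak, in Pcdhb21 in the list labelled WT, and 0 of 19 lay in a peak labelled Bmi1-/-. Peaks in variable exons had median widths of 255 and 326 bp, and the median coding part was 2397 bp long. The share of exon sequence under peaks was not computed, so these counts do not show a lack of peaks at the matches. Exons with a match had a peak in 6 and 8 of 19 cases (31.6% and 42.1%), and exons without a match in 10 and 17 of 39 cases (25.6% and 43.6%). Of the window peaks, 1 of 26 labelled WT (3.85%, 0.0973 to 19.6) and 0 of 40 labelled Bmi1-/- (up to 8.81%) held an exact match, beside 0.340% and 0.474% of all peaks. In promoters 6 of 58 members (10.3%) had an exact match, 543 to 587 bp after the gene start, and these were the 6 alpha exon matches again, beside 1.72% of all protein-coding promoters. With 1 mismatch allowed the shares were 22.4% and 20.6%. The consensus has 12 bases, and sites further from it went uncounted, so these shares do not compare the CTCF sites of promoters. Member promoters had a median G+C content of 43.0%, beside 51.2% for all protein-coding promoters, and a median ratio of observed to expected CpG of 0.480, beside 0.475.

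Genes that act on the clusters or with their products were looked at in the same way. Of 12 regulators, 8 had a promoter peak labelled WT (66.7%, 34.9 to 90.1) and 11 had one labelled Bmi1-/- (91.7%, 61.5 to 99.8), beside 42.3% and 54.7% of protein-coding genes. The first interval includes the share of protein-coding genes. The 12 genes were chosen with earlier results of these data known, so the second interval does not measure an excess. Ctcf stood at the 97.1st percentile labelled WT and the 92.5th percentile labelled Bmi1-/-, and Wapl, which releases cohesin from DNA, at the 99.0th and the 99.3rd. Among the subunits of cohesin, Rad21, Smc3 and Stag2 had a promoter peak in both lists, Stag1 in the list labelled Bmi1-/- only and Smc1a in neither. The cohesin loader Nipbl, the chromatin protein Smchd1 and the DNA methyltransferase Dnmt3b had one in both lists. The histone methyltransferase Setdb1 and its partner Trim28 had one in the list labelled Bmi1-/- only, with −log10 p values of 4.44 and 4.91.

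Among 5 partners of the shared intracellular domain and of its signalling, Ptk2, Ptk2b, Fyn and Ret had a promoter peak in both lists and Ctnnb1 in neither, and the interval of 4 of 5 (28.4 to 99.5) includes the share of protein-coding genes for both lists. The kinase gene Ptk2 stood at the 98.2nd and 99.4th percentiles. The 12 non-clustered protocadherins, which have promoters of their own and lie outside the tandem arrays, had a promoter peak labelled WT in 5 cases and one labelled Bmi1-/- in 7. Pcdh1, Pcdh8, Pcdh9, Pcdh17 and Pcdh19 had one in both lists. Pcdh9 was the strongest of them in the list labelled WT, at the 98.2nd percentile, and stood at the 63.1st in the list labelled Bmi1-/-. Pcdh15, a component of the hair cell tip link, and Pcdh18 had one in the list labelled Bmi1-/- only, with −log10 q values of 1.07 and 0.844. Beside these 5 and 7 of 12 genes, the clustered members had 0 and 4 of 58.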

How the data were processed

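ATAC-seq peak lists of 2 libraries, labelled WT and Bmi1-/-, were analysed, each from 10 pooled mice. The authors mapped reads with BWA to mm10 and called peaks in each library with MACS2 (versions not given in the sources used here). As deposited, fold enrichment is a ratio, (summit pileup + 1) over (local background + 1). The deposited −log10 p gives the Poisson p-value of the pileup, and the deposited −log10 q gives the q-value. A deposited score column holds 10 times −log10 p and went unused. The lowest −log10 p in the lists is 2.00.

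Pileup and background were solved from fold and −log10 p, and matched the deposited −log10 p within 3.94e-05. Read totals are not in the lists, so depth is known only as this background. Peaks off the assembled chromosomes (230 and 237) were left out, and 1 annotated Pcdha11 at 37005203 was called Pcdha10 as in RefSeq. Genes and exons came from GENCODE vM21. A constant exon was one shared by at least 3 members. Shares have exact binomial, densities exact Poisson and ratios exact conditional 95% intervals. Python 3.11.15 with numpy 2.4.6, pandas 2.3.3, scipy 1.17.1, pysam 0.24.0 and matplotlib 3.10.9 was used, and the steps were tested on simulated data.

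The members and gene lists were chosen with earlier results of these data known. Genes named by rule were the C-type members, in each cluster the 4 members with the strongest promoter peak in each list, members whose promoter peak is in a single list with −log10 q ≥ 1.3, the listed genes, and other genes with a window peak at their promoter. Alternatives were stricter thresholds, equal list lengths, other promoter windows, other overlaps and placement by summit.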

Additional observations from a re-analysis of the deposited data

How the results depend on the processing

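With 1 library per genotype no replicate could be left out. No paired analysis was possible because each genotype has 1 library. Keeping peaks with −log10 q ≥ 1.3 gave 16 window peaks labelled WT, 1.72 and 2.90 per 100 kb, 9 and 18 peaks in variable exons, 2 alpha and 2 beta peaks labelled WT, so that the alpha cluster was no longer the sparsest there, and 9 gamma peaks labelled Bmi1-/-. At the stricter p threshold (−log10 of 5 or more), 9 and 8 window peaks were left, or 0.966 and 0.859 per 100 kb, which turned the ratio of Bmi1-/- over WT to 0.889 (0.298 to 2.60). Under each of these thresholds, and with both lists cut to equal length, 2 members had a promoter peak labelled Bmi1-/-. With lists of equal length the window held 26 peaks labelled WT and 30 labelled Bmi1-/-, of which 16 and 20 lay in variable exons. A promoter of 3 kb to each side reached into the variable exons and gave 19 members labelled WT and 26 labelled Bmi1-/-, with 10 in both, 9 and 16 in a single list and 23 in neither. Counting any transcript start gave 1 member labelled WT, found in that list only. Chosen after seeing the data, the number of variable exons with a peak was 9 and 15, with 5 in both, at −log10 q ≥ 1.3 (15.5% and 25.9%, beside 22.0% and 30.1% of other long exons), and 6 and 4, with 2 in both, at the stricter p threshold (10.3% and 6.90%, beside 12.8% and 18.4%). At that last threshold 100% of 6 summits labelled WT and 60% of 5 labelled Bmi1-/- (14.7 to 94.7) lay in the 3′-most 50% of the coding part. At the −log10 q threshold these shares were 88.9% and 88.2%. The cause of the differences was not tested. Placement by summit changed few of its 25 values, leaving 3 members with a promoter peak labelled Bmi1-/- and 28 peaks so labelled in variable exons. Without margins the window held 24 peaks labelled WT and 38 labelled Bmi1-/-.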

Other observations

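The weakest window peaks, with 14 reads labelled WT and 16 labelled Bmi1-/-, had −log10 p values of 2.64 and 2.41, not far above the lowest value in each list (2.0 in both). With 1 library per genotype, a peak in a single list does not show a difference in accessibility between genotypes. Mappability of the reads and G+C bias of the libraries were not measured in the files, and their part in the position of the exon peaks was not tested. A promoter without a peak did not pass the threshold in pooled tissue, and a promoter accessible in few cells cannot be told apart there from a closed one.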
